A study of Saccharomyces cerevisiae with 34 samples.

Results

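*POA1*, *DFR1*, *YGL101W* and *GPI15* are 4 of the 6209 yeast genes whose mRNA was counted by RNA-seq. They were chosen by their fall in *psh1Δ pGAL-3Flag-CSE4* cells after 2 h of galactose, as counted in these same libraries, so their low level there is given as a description and was not tested. The *psh1Δ pGAL-3Flag-CSE4* strains carry a galactose-inducible 3Flag-tagged *CSE4* integrated at *leu2* with the *LEU2* marker. They also lack *PSH1*, which encodes the E3 ubiquitin ligase that marks excess Cse4 for proteolysis. Cse4 is the budding yeast CENP-A, the histone H3 variant of centromeric nucleosomes. The other genotypes included *pGAL-3Flag-CSE4*, which carries the same transgene with *PSH1* intact, *psh1Δ*, *htz1Δ*, which lacks the histone variant H2A.Z, and wild type (WT). In the remaining genotype, *pGAL-H3*, a construct integrated at *trp1* with the *TRP1* marker gives galactose-inducible histone H3. The transgenic strains kept their endogenous histone genes, and all strains were *MATa bar1-1 bud4 RAD5* haploids of the W303 background, grown in YEP with lactic acid at 23 °C and sampled in log phase before galactose (t0) and 2 h after galactose was added to 2% (t2). Galactose was thus given to every strain, WT included. Apart from the markers integrated with the transgenes, all strains carried *ura3*, *leu2*, *his3*, *trp1*, *ade2* and *can1* mutations. The *CSE4* transgenic strains therefore also differ from WT and *psh1Δ* by *LEU2*, and *pGAL-H3* differs by *TRP1*. The labels give a KAN marker at the *PSH1* deletion and a HYG marker at the *HTZ1* deletion, so these strains also differ from WT by a deletion marker. For the batch 3 strain of *psh1Δ pGAL-3Flag-CSE4* the study's strain list gives HYG. Each genotype had 3 strains, 1 in each of 3 batches, except *pGAL-3Flag-CSE4*, which had strains in batches 2 and 3 only, and the 34 libraries therefore form 12 groups of 3 or 2. A batch is the number in the sample labels, and t0 and t2 of a batch were taken from the same strain. In asynchronous bulk cultures, fewer cells that express a gene and less RNA per cell cannot be told apart.

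Each of these genes encodes a small enzyme or enzyme subunit of basic metabolism. Poa1 removes the phosphate of ADP-ribose phosphate, a by-product of the last step of tRNA splicing, in which spliced tRNA loses an extra phosphate to NAD. Dfr1 is dihydrofolate reductase, the target of methotrexate, and regenerates the tetrahydrofolate that thymidylate synthesis consumes. YGL101W is annotated in RefSeq as a deoxynucleotidase (*YGK1*), an enzyme that removes phosphate from deoxyribonucleoside monophosphates, and the deposited tables give *YBR242W* as its paralog from the whole genome duplication. Gpi15 is a subunit of the enzyme that adds N-acetylglucosamine to phosphatidylinositol, the first step of the glycosylphosphatidylinositol (GPI) anchor that attaches proteins to the cell surface. In budding yeast, transcription starts within a short distance upstream of the start codon, and the promoter of a gene lies mostly in the gap to its upstream neighbour.

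The genes lie on 4 chromosomes, all on the + strand of SacCer3. *POA1* (YBR022W) spans chrII:283738-284271, *DFR1* (YOR236W) chrXV:780906-781541 and *YGL101W* chrVII:312193-312840, and *GPI15* (YNL038W), which has an intron, spans chrXIV:557020-557783. They are 534, 636, 648 and 764 bases long from start to stop codon, against a median of 1131 bases over all 6209 genes, and between 20.2% and 31.8% of genes are no longer than they are. Every 50-base window of the 4 genes and of *YBR242W* occurs once in the genome, so reads of the paralogs could be told apart. The gap to the upstream gene is 393 bases for *POA1*, 309 for *DFR1*, 259 for *YGL101W* and 187 for *GPI15*, against a median of 399 over 6194 genes. The upstream gene is on the same strand for *POA1*, *DFR1* and *GPI15* and on the opposite strand for *YGL101W*. That opposite-strand gene, *YGL102C*, overlaps *RPL28*, which is on the same strand as *YGL101W* and lies 265 bases upstream of it. Over all genes it is on the same strand for 46.4%.

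The 4 genes were chosen for their fall in the same libraries, so that they were low together is not a result. Their promoter windows are shown to let a reader see these stretches. Each runs from 250 bases before the start codon to 50 bases after its first base, 5′ to 3′ on the + strand of the RefSeq R64 genome, at chrII:283488-283787, chrXV:780656-780955, chrVII:311943-312242 and chrXIV:556770-557069. Capitals mark matches, on either strand, to the TATA element TATAAA, the Reb1 motif TTACCCG, the MBF motif ACGCGT, the Gcn4 motif TGACTC, the homopolymer AAAAAAA or the Abf1 consensus, and where none was found the window is all in lower case.
POA1: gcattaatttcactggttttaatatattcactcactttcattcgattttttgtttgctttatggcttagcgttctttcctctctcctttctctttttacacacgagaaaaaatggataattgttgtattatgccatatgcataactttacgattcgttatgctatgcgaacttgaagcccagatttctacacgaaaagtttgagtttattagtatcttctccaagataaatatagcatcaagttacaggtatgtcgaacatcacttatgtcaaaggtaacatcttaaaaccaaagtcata
DFR1: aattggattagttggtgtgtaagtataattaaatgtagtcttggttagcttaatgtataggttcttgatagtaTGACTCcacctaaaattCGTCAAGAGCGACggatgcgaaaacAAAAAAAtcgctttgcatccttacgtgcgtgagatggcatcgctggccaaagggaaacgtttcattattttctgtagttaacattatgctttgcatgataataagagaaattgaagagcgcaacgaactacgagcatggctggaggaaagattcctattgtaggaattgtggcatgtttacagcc
YGL101W: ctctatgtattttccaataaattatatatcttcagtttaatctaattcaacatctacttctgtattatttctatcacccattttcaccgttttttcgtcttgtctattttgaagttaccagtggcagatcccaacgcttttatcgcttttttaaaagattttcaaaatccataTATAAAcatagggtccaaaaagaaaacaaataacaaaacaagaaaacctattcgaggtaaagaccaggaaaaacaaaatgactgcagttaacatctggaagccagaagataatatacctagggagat
GPI15: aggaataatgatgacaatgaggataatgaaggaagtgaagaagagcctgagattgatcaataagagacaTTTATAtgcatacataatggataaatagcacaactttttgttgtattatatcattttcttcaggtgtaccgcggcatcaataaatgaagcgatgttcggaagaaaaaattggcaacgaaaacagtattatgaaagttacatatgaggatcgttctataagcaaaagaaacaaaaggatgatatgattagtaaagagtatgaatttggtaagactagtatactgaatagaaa

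No motif was found in all 4 windows. The *DFR1* window held TGACTC 177 bases before the start codon, a match to the Abf1 consensus on the opposite strand 160 bases before it, overlapping none of the other motifs, and AAAAAAA 135 bases before it. *YGL101W* held TATAAA 77 bases before its start codon, and *GPI15* held TATAAA on the opposite strand, at 181 bases. The *GPI15* window begins inside the upstream gene *BDP1*, whose end is separated from *GPI15* by a gap of 187 bases. *POA1* held none of the 6 motifs. Over the 6209 windows of the same length in the genome, TATAAA was in 44.3%, AAAAAAA in 49.4%, the Abf1 consensus in 11.8%, TGACTC in 8.18%, TTACCCG in 7.13% and ACGCGT in 3.08%. G and C made up 32.7% of the *POA1* window, 39.0% of *DFR1*, 31.3% of *YGL101W* and 31.7% of *GPI15*, against a median of 36.0% over all windows. Such matches are descriptions of these letters only.

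The libraries held between 5258139 and 6836827 counts, with a median of 5852828. Levels are given as CPM, counts scaled to library size and then by TMM, a scaling that sets the bulk of genes level between libraries. Reads on *PSH1* numbered 0 to 3 where the gene was deleted, in 12 libraries, against 165 to 330 elsewhere. Reads on *HTZ1* numbered 0 to 2 in the 6 libraries of strains without it, against 556 to 837 elsewhere. At t2, *CSE4* ranged between 14373 and 21978 CPM in *psh1Δ pGAL-3Flag-CSE4*, between 10830 and 11320 CPM in *pGAL-3Flag-CSE4*, and between 22.1 and 24.4 CPM in WT, so the strains without Psh1 also had more *CSE4* mRNA than those with it. *HHT1*, which encodes histone H3, was between 4063 and 4410 CPM in *pGAL-H3* and between 508 and 617 CPM in WT at t2. The t0 libraries of batch 3 stood apart from the other t0 libraries. Replicate pairs at t0 that include batch 3 differed by a root mean square of 0.33 to 0.48 on the log2 scale, against 0.22 to 0.30 for pairs of batches 1 and 2.

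*POA1* was lower in *psh1Δ pGAL-3Flag-CSE4* cells at t2 than in any other library of the series. It was at 9.30, 12.2 and 9.95 CPM in batches 1, 2 and 3, from 46, 58 and 49 counts, against 28.5, 29.6 and 27.4 CPM in WT at t2. The same *psh1Δ pGAL-3Flag-CSE4* strains had 27.7, 28.3 and 29.1 CPM at t0, against 31.0, 32.1 and 32.3 CPM in WT at t0. Over the other 31 libraries *POA1* stayed between 21.2 and 34.5 CPM with a median of 28.3, and no library of another group came near the 3 low ones. The gap of 0.78 on the log2 scale between the highest of the low libraries and the lowest of the others was the widest among the 210 genes, 3.38% of all, for which those 3 libraries were the lowest. These are the libraries the genes were chosen by, so the gap is a description. *GPI15*, with a gap of 0.28, ranked 39 and *YGL101W*, with 0.25, ranked 47 among the 210. Within batches, *POA1* was lower at t2 than at t0 by a mean log2 of -1.40 ± 0.19 (SD, n = 3) in *psh1Δ pGAL-3Flag-CSE4* and of -0.16 ± 0.07 (SD, n = 3) in WT.

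The second lowest group for *POA1* was *pGAL-3Flag-CSE4* at t2, at 21.2 and 23.3 CPM, against 28.7 and 34.5 CPM in that genotype at t0. *psh1Δ* had 27.5, 23.9 and 24.6 CPM at t2 and 28.3, 28.4 and 27.2 CPM at t0, *htz1Δ* had 26.4, 28.4 and 24.0 CPM at t2 and 28.2, 30.7 and 33.2 CPM at t0, and *pGAL-H3* had 25.5, 23.7 and 21.8 CPM at t2 and 26.2, 29.3 and 31.9 CPM at t0. Ordered by mean, the 12 groups form an unbroken run above *psh1Δ pGAL-3Flag-CSE4* t2, in which the range of every group overlaps that of the next. At t2 the *psh1Δ pGAL-3Flag-CSE4* level was on average 1.98-fold below *pGAL-3Flag-CSE4* of the same batch (n = 2), 2.36-fold below *psh1Δ*, 2.45-fold below *htz1Δ* and 2.21-fold below *pGAL-H3* (n = 3 each).

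*DFR1* was at 18.6, 17.2 and 24.0 CPM in *psh1Δ pGAL-3Flag-CSE4* at t2, from 92, 82 and 118 counts, against 35.6, 44.5 and 43.9 CPM in WT at t2. At t0 it was at 34.1, 37.3 and 34.0 CPM in *psh1Δ pGAL-3Flag-CSE4*, against 30.1, 28.5 and 32.4 CPM in WT. The low group did not stand clear of all others, since 1 library, *pGAL-H3* batch 2 at t0, had 22.9 CPM and lay below the batch 3 library of *psh1Δ pGAL-3Flag-CSE4* at t2. The difference in change was made from both sides, because *DFR1* was lower at t2 than at t0 in *psh1Δ pGAL-3Flag-CSE4*, by a mean log2 of -0.81 ± 0.30 (SD, n = 3), and higher at t2 than at t0 in each batch of WT, by 0.43 ± 0.20 (SD, n = 3). Without batch 2, the fitted difference of changes was -1.04 and without batch 3 it was -1.46.

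*DFR1* was also the member that varied most among the other groups. It was highest in *htz1Δ* at t2, at 57.8, 65.5 and 56.2 CPM, against 32.2, 30.5 and 40.4 CPM in *htz1Δ* at t0. *pGAL-H3* had 36.8, 34.7 and 41.7 CPM at t2 and 26.4, 22.9 and 27.4 CPM at t0. *psh1Δ* had 35.2, 36.3 and 57.4 CPM at t2, where batch 3 stood above the other libraries, and 30.7, 30.3 and 28.0 CPM at t0. Only *pGAL-3Flag-CSE4* had near equal levels at both times, with 30.1 and 31.1 CPM at t2 and 30.4 and 32.1 CPM at t0. In the order of group means the ranges of neighbours overlap at each step but one, between *psh1Δ* at t0 and *pGAL-H3* at t0.

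*YGL101W* had the highest level of the 4 per length. It was at 35.6, 37.8 and 34.5 CPM in *psh1Δ pGAL-3Flag-CSE4* at t2, from 176, 180 and 170 counts, against 75.1, 68.6 and 69.6 CPM in WT at t2. At t0 it was at 58.2, 46.4 and 50.7 CPM in *psh1Δ pGAL-3Flag-CSE4*, against 50.1, 52.8 and 50.9 CPM in WT. The 3 low libraries lay below all 31 others, which ranged between 45.2 and 81.3 CPM with a median of 58.8. The mean log2 difference of t2 from t0 was -0.51 ± 0.21 (SD, n = 3) in *psh1Δ pGAL-3Flag-CSE4* and 0.47 ± 0.10 (SD, n = 3) in WT, so the strains moved in opposite directions in every batch. *pGAL-3Flag-CSE4* had 60.5 and 56.7 CPM at t2 and 48.2 and 55.5 CPM at t0, *psh1Δ* had 81.3, 58.8 and 78.6 CPM at t2 and 55.2, 51.8 and 45.8 CPM at t0, *htz1Δ* had 80.1, 71.8 and 76.6 CPM at t2 and 63.3, 50.7 and 62.4 CPM at t0, and *pGAL-H3* had 74.2, 64.2 and 63.7 CPM at t2 and 51.2, 45.2 and 59.6 CPM at t0. Every strain other than *psh1Δ pGAL-3Flag-CSE4* had thus more *YGL101W* mRNA at t2 than at t0 in every batch. In the order of group means, neighbours did not overlap between the lowest group and *psh1Δ* at t0 or between *pGAL-H3* at t2 and *htz1Δ* at t0.

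The paralog *YBR242W* did not share the low level of *YGL101W*. It was at 50.5, 61.6 and 52.2 CPM in *psh1Δ pGAL-3Flag-CSE4* at t2, against 53.8, 52.4 and 58.0 CPM in WT at t2. At t0 it was at 42.7, 47.8 and 44.1 CPM in *psh1Δ pGAL-3Flag-CSE4*, against 45.4, 38.7 and 43.6 CPM in WT. The *psh1Δ pGAL-3Flag-CSE4* change differed from the WT change by a log2 of -0.10 (SE 0.14, quasi-likelihood test of edgeR, Benjamini-Hochberg adjusted p = 0.786). The proteins translated from the genome have 215 and 238 residues for YGL101W and YBR242W, and 139 of 215 aligned residues, 64.7%, are identical. Per kilobase of gene, *YGL101W* was at 55.5 ± 2.61 CPM in *psh1Δ pGAL-3Flag-CSE4* at t2 and 110 ± 5.35 CPM in WT at t2, and *YBR242W* at 76.4 ± 8.30 CPM and 76.3 ± 4.02 CPM (SD, n = 3 each). The order of the paralogs was therefore reversed, with *YGL101W* below *YBR242W* in *psh1Δ pGAL-3Flag-CSE4* at t2 and above it in WT.

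*GPI15* was the least abundant of the 4 and rests on the fewest reads. It was at 9.30, 9.87 and 7.71 CPM in *psh1Δ pGAL-3Flag-CSE4* at t2, from 46, 47 and 38 counts, against 20.4, 16.5 and 17.3 CPM in WT at t2. At t0 it was at 15.1, 16.3 and 15.3 CPM in *psh1Δ pGAL-3Flag-CSE4*, against 16.4, 16.8 and 19.8 CPM in WT. The 3 low libraries again lay below all 31 others, which ranged between 12.1 and 25.2 CPM with a median of 17.5. *pGAL-3Flag-CSE4* had 20.9 and 18.9 CPM at t2 and 12.1 and 14.9 CPM at t0, and *psh1Δ* had 23.5, 16.9 and 21.5 CPM at t2 and 14.2, 14.2 and 14.3 CPM at t0, so in both genotypes every library at t2 was above every library at t0. Neither difference passed the test given with the comparisons between times. The ranges of *htz1Δ*, with 21.0, 23.0 and 24.4 CPM at t2 and 25.2, 17.6 and 20.9 CPM at t0, and of *pGAL-H3*, with 18.1, 20.5 and 17.5 CPM at t2 and 13.7, 12.3 and 19.1 CPM at t0, overlapped between the times. The mean log2 difference of t2 from t0 was -0.77 ± 0.15 (SD, n = 3) in *psh1Δ pGAL-3Flag-CSE4* and 0.03 ± 0.25 (SD, n = 3) in WT. In the order of group means, neighbours did not overlap between the lowest group and *pGAL-3Flag-CSE4* at t0 or between *psh1Δ pGAL-3Flag-CSE4* and WT at t0.

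**Figure D1:**
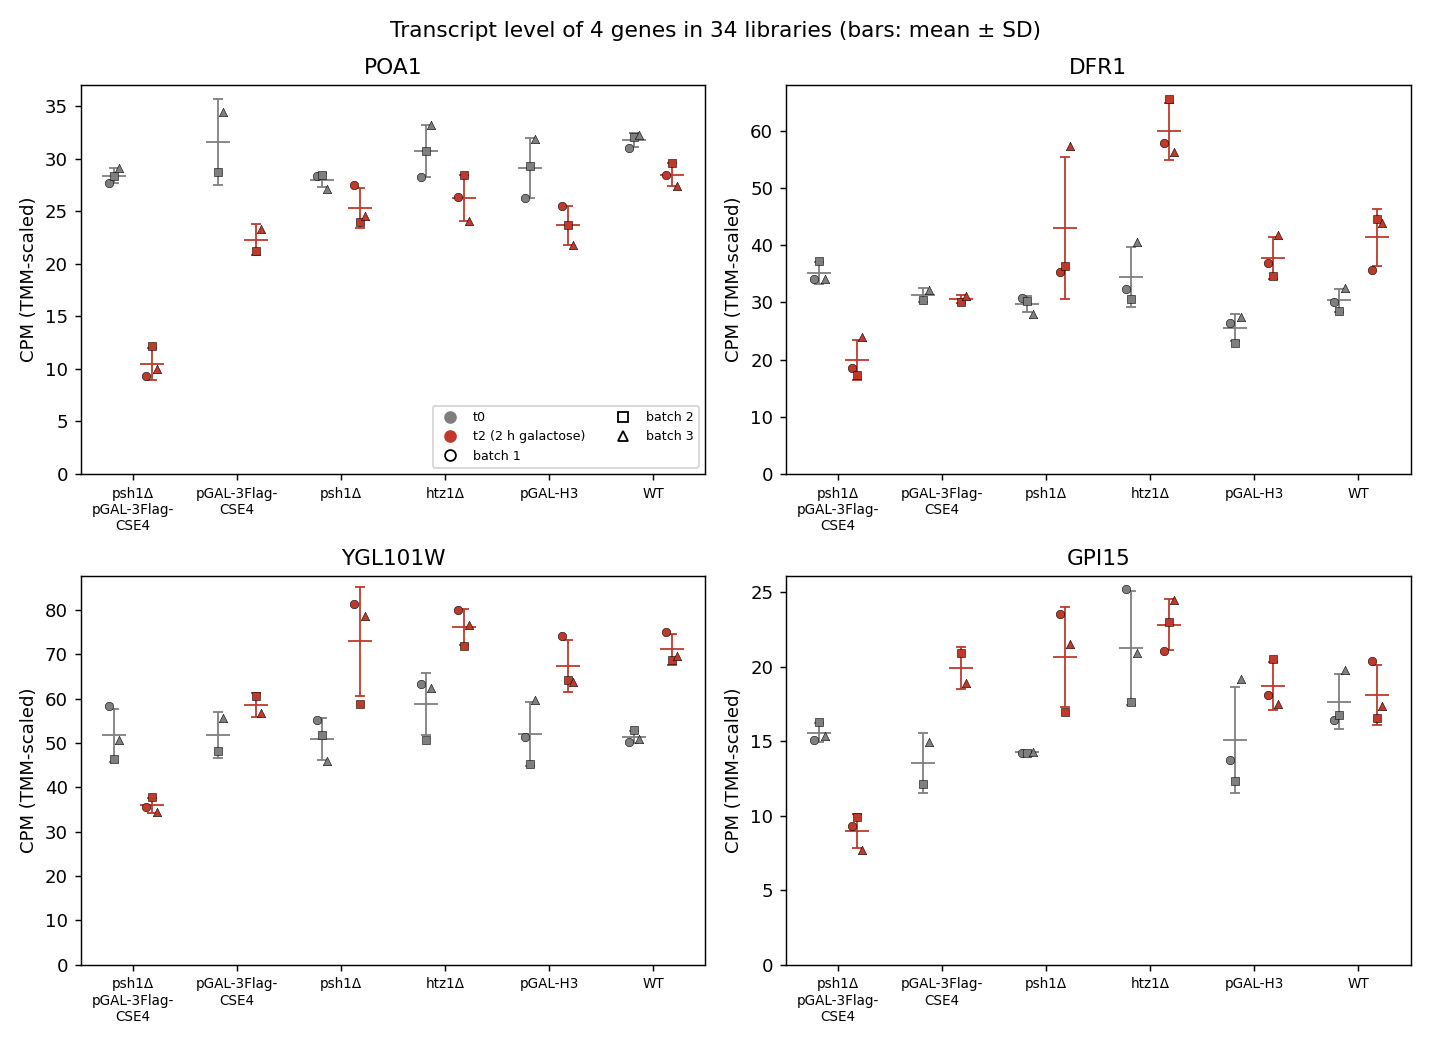
TMM-scaled CPM of *POA1*, *DFR1*, *YGL101W* and *GPI15* in the 34 libraries, by genotype, with t0 in grey and t2 in red, 1 symbol per batch, and the mean ± SD of each group. The *psh1Δ pGAL-3Flag-CSE4* t2 libraries sit lowest in each panel, at 9.30 to 12.2 CPM for *POA1*, 17.2 to 24.0 CPM for *DFR1*, 34.5 to 37.8 CPM for *YGL101W* and 7.71 to 9.87 CPM for *GPI15*, with 1 *pGAL-H3* t0 library at 22.9 CPM inside the *DFR1* range.

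All 4 genes were still detected in every library, with at least 38 counts, so their transcripts were low and not absent. Per kilobase of gene in WT at t2, *YGL101W* was at 110 ± 5.35 CPM, *DFR1* at 65.0 ± 7.80 CPM, *POA1* at 53.3 ± 2.06 CPM and *GPI15* at 23.7 ± 2.64 CPM (SD, n = 3 each). The median gene was at 40.2 CPM per kilobase there, and on that scale *YGL101W* stood at percentile 77.6 of all genes, *DFR1* at 65.4, *POA1* at 59.3 and *GPI15* at 32.0. They are therefore neither rare transcripts nor among the most abundant. On the same scale in *psh1Δ pGAL-3Flag-CSE4* at t2, *YGL101W* was at 55.5 ± 2.61 CPM, *DFR1* at 31.3 ± 5.59 CPM, *POA1* at 19.6 ± 2.84 CPM and *GPI15* at 11.7 ± 1.46 CPM (SD, n = 3 each).

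The difference between the change of *psh1Δ pGAL-3Flag-CSE4* and that of WT, fitted with edgeR, was -1.30 (SE 0.15) for *POA1*, -1.28 (SE 0.18) for *DFR1*, -1.02 (SE 0.13) for *YGL101W* and -0.86 (SE 0.19) for *GPI15*, on the log2 scale. A gene was called at an adjusted p under 0.05 and a change of at least 1.5-fold, and in this contrast 0.338% of all genes were called. Since the genes were chosen for this contrast, nothing is read from how many of them are called. From the lowest of all 6209 genes, *POA1* ranked 27, *DFR1* 31, *YGL101W* 65 and *GPI15* 119, and among the 5325 genes with a mean of at least 50 counts they ranked 3, 5, 16 and 48. The median of all genes in the contrast was -0.01. With library totals in place of TMM scaling, that median moved by -0.18, and *POA1* was at -1.48, *DFR1* at -1.46, *YGL101W* at -1.20 and *GPI15* at -1.03, so the 4 genes kept about the same distance from it. The scaling factors of these 3 t2 libraries, 0.864 to 0.889, were the lowest of the series. Chromosomes II, VII, XIV and XV had median log2 differences between *psh1Δ pGAL-3Flag-CSE4* and WT at t2 between -0.07 and 0.05 in each batch.

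The other genotypes show how the 4 genes stood after galactose outside the strains they were chosen in, although with 0.805% to 10.8% of all genes called between times a count of 0 among 4 says little about them. The comparisons of t2 with t0 in *pGAL-3Flag-CSE4*, *psh1Δ*, *htz1Δ* and *pGAL-H3* share no library with the contrast by which the genes were chosen, and they were tested with edgeR's quasi-likelihood method with Benjamini-Hochberg adjustment over 6209 genes. In *pGAL-3Flag-CSE4*, 0 of 4 genes were called, against 4.86% of all genes. An unadjusted p under 0.05 was found for 2 of them, against 26.5% of all genes, and DESeq2 called 0, against 4.48%. *POA1* differed by a log2 of -0.50 (SE 0.16, adjusted p = 0.0829) and *GPI15* by 0.56 (SE 0.18, adjusted p = 0.0988), while *YGL101W* was at 0.17 (SE 0.11) and *DFR1* at -0.03 (SE 0.13). *POA1* and *GPI15*, both low in the double strain, thus leaned in opposite directions here without passing the test.

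In *psh1Δ*, 0 of 4 were called between t2 and t0, against 0.805% of all genes. There 3 had an unadjusted p under 0.05, against 19.4% of all genes, and DESeq2 called 0, against 4.36%. *YGL101W*, *GPI15* and *DFR1* were at 0.51 (SE 0.15), 0.53 (SE 0.17) and 0.53 (SE 0.20), and *POA1* at -0.14 (SE 0.13). The *DFR1* value was 0.22 without batch 3 and 0.69 without batch 1. The batch 3 library of *psh1Δ* at t2, the one with the high *DFR1* level, differed from the other 2 by a root mean square log2 of 0.46 and 0.44, against 0.28 between those 2, and the part of this in the *DFR1* value was not tested. In *pGAL-H3*, 0 of 4 were called, against 10.8% of all genes. An unadjusted p under 0.05 was found for 3 of them, against 39.2% of all genes, and DESeq2 called 0, against 11.0%. There *DFR1* was at 0.56 (SE 0.11, adjusted p = 0.00915) and *YGL101W* at 0.38 (SE 0.12, adjusted p = 0.049), both short of the fold limit, and *POA1* was at -0.30 (SE 0.11, adjusted p = 0.0885) and *GPI15* at 0.31 (SE 0.17).

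In *htz1Δ*, *DFR1* rose. It was called higher at t2 than at t0 by a log2 of 0.81 (SE 0.13, adjusted p = 0.00377), with 3 of 3 strains higher, in a comparison that called 4.96% of all genes higher and 10.8% in either direction. Without batch 2 the change was 0.67 (adjusted p = 0.067) and the call was lost, and without batch 3, whose t0 libraries stand apart, it was 0.98 and was kept. *YGL101W* was at 0.38 (SE 0.11, adjusted p = 0.0328), under the fold limit, *GPI15* at 0.11 (SE 0.15) and *POA1* at -0.21 (SE 0.12). Dihydrofolate reductase mRNA was thus higher after galactose in the strain without H2A.Z, while the other 3 transcripts were not called. *DFR1* was also higher at t2 than at t0 in each batch of WT, *psh1Δ* and *pGAL-H3*. The log2 change of *htz1Δ* minus that of WT was 0.60, 0.46 and 0.04 in batches 1, 2 and 3, and this difference was not tested.

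The remaining comparisons share WT libraries with the contrast by which the genes were chosen. At t2, *htz1Δ* against WT called 0 of 4 genes and 6.54% of all genes. An unadjusted p under 0.05 was found for 2 members and 30.6% of all genes. DESeq2 called 0 members and 5.99% of all genes. *DFR1* was at 0.53 (SE 0.12, adjusted p = 0.0108), under the fold limit, and without batch 3 it was at 0.62 and was called. *GPI15* was at 0.33 (SE 0.14, adjusted p = 0.131), *YGL101W* at 0.10 (SE 0.09) and *POA1* at -0.12 (SE 0.12). *psh1Δ* against WT at t2 called 0 of 4 genes and 0.0161% of all genes. An unadjusted p under 0.05 was found for 0 members and 1.69% of all genes. DESeq2 called 0 members and 0.0161% of all genes. The values lay between -0.16 for *POA1* and 0.20 for *GPI15*.

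The change of *pGAL-3Flag-CSE4* minus that of WT called 0 of 4 genes and 0.0161% of all genes. An unadjusted p under 0.05 was found for 2 members and 2.25% of all genes. DESeq2 called 0 members and 0.0161% of all genes. *DFR1* was at -0.47 (SE 0.17), *POA1* at -0.34 (SE 0.16), *YGL101W* at -0.29 (SE 0.13) and *GPI15* at 0.53 (SE 0.22). All 4 had an adjusted p of 0.999 in this comparison, which has 2 strains of *pGAL-3Flag-CSE4*. The negative values share the sign of the double strain, but both contrasts subtract the same WT change, so a shared sign is partly built in. In *pGAL-3Flag-CSE4* alone, t2 differed from t0 by -0.03 for *DFR1*, 0.17 for *YGL101W*, -0.50 for *POA1* and 0.56 for *GPI15*. The change of *pGAL-H3* minus that of WT called 0 of 4 genes and 0.0161% of all genes. An unadjusted p under 0.05 was found for 0 members and 5.89% of all genes. DESeq2 called 0 members and 0.145% of all genes. The values of this comparison lay between -0.13 for *POA1* and 0.28 for *GPI15*. The higher *CSE4* level of the double strain moves with the lower level of the 4 genes, and its part in the difference from *pGAL-3Flag-CSE4* was not tested.

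**Figure D2:**
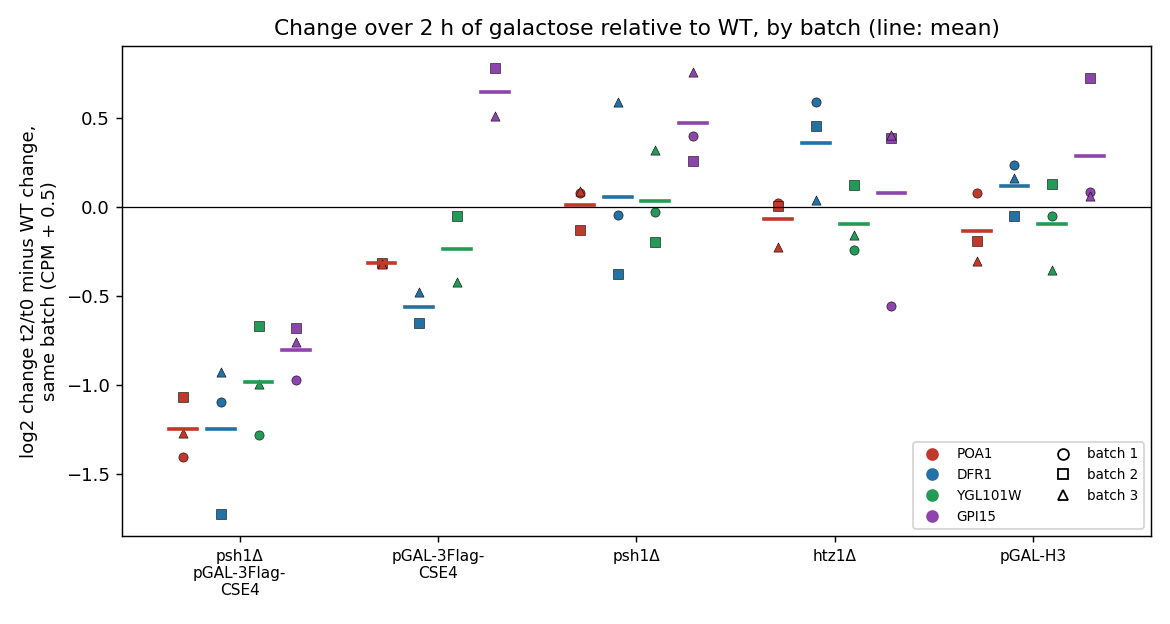
Log2 change of t2 over t0 (CPM + 0.5) minus that of the WT strain of the same batch, for the 4 genes in the 5 other genotypes, with 1 symbol per batch and a line at the mean. All 12 points of *psh1Δ pGAL-3Flag-CSE4* lie between -1.73 and -0.67, and in *pGAL-3Flag-CSE4* the *GPI15* points are at 0.51 and 0.78 while those of the other 3 genes lie below 0.

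The genes beside the 4 had values on both sides of 0. Of the 16 nearest genes, taken as 2 on each side, 0 were called in the contrast of *psh1Δ pGAL-3Flag-CSE4* change against WT change by edgeR, against 0.338% of all genes, a share at which a count of 0 says little about them. DESeq2 called 1 of them, against 2.59% of all genes, and 3 had an unadjusted p under 0.05, against 16.1% of all genes. Their median was -0.03, against -0.01 for all genes, and 9 of 16 values were negative. *RPL33B* and *SEH1* had negative values in each batch, and *FUR4*, *GAL1*, *HES1*, *IDH1* and *NCE103* had positive values in each batch.

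*POA1* lies downstream of the galactose gene cluster, behind *GAL1*, which encodes galactokinase, and *FUR4*, which encodes uracil permease and ends 393 bases before the *POA1* start codon. *FUR4* was at 798, 750 and 682 CPM in *psh1Δ pGAL-3Flag-CSE4* at t2, against 410, 336 and 364 CPM in WT at t2. At t0 it was at 68.3, 76.5 and 84.7 CPM in *psh1Δ pGAL-3Flag-CSE4*, against 91.9, 61.5 and 95.7 CPM in WT. *FUR4* mRNA was thus several times higher after galactose in both strains, and more so in *psh1Δ pGAL-3Flag-CSE4* in each batch, with a difference of changes of 1.10 (SE 0.22, adjusted p = 0.0541) that missed the threshold in edgeR and passed it in DESeq2. The next gene, *GAL1*, was at 22161, 19534 and 19380 CPM in *psh1Δ pGAL-3Flag-CSE4* at t2, against 13352, 14813 and 14151 CPM in WT at t2, with a difference of changes of 0.41 (SE 0.29, adjusted p = 0.546). On the other side, *CHS3*, which encodes chitin synthase and faces *POA1* from the opposite strand, was at -0.03 (SE 0.14), and *SCO2* at 0.12 (SE 0.17). *POA1* at -1.30 therefore stands between a gene with a positive and a gene with a near zero difference.

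Beside *DFR1*, the small nucleolar RNA *SNR17A* upstream had a mean of 7.35 counts and *HES1*, which encodes an oxysterol-binding protein, downstream a mean of 9.53 counts, too few to show a difference of that size with their standard errors of 0.85 and 0.62. *RPL33B*, a ribosomal protein gene on the opposite strand, was at -0.46 (SE 0.21, adjusted p = 0.321) and *YOR238W* at -0.03 (SE 0.16). Beside *YGL101W*, *SEH1*, which encodes a nuclear pore subunit, was at -0.34 (SE 0.12, adjusted p = 0.179) and was lower in each of the 3 batches, and *LSG1*, *RPL28* and *YGL102C* were at -0.21 (SE 0.17), -0.28 (SE 0.28) and -0.22 (SE 0.20). *RPL28* and *YGL102C* overlap on opposite strands and the library kit does not keep strand, so their reads cannot be told apart.

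Beside *GPI15*, *BDP1*, which encodes a subunit of an RNA polymerase III initiation factor and ends 187 bases upstream, was at 0.01 (SE 0.14), and *YNL040W* at -0.22 (SE 0.18). *IDH1*, which encodes a subunit of isocitrate dehydrogenase and converges on *GPI15*, was at 0.32 (SE 0.16). *NCE103*, which encodes carbonic anhydrase, was at 1.72 (SE 0.77, adjusted p = 0.296), with 617, 1570 and 241 CPM in *psh1Δ pGAL-3Flag-CSE4* at t2, against 144, 275 and 127 CPM in WT at t2. Its spread between batches within a group was wide at t2 in both. Taken within batches, its difference of changes was positive in each, between 1.26 and 1.96.

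**Figure D3:**
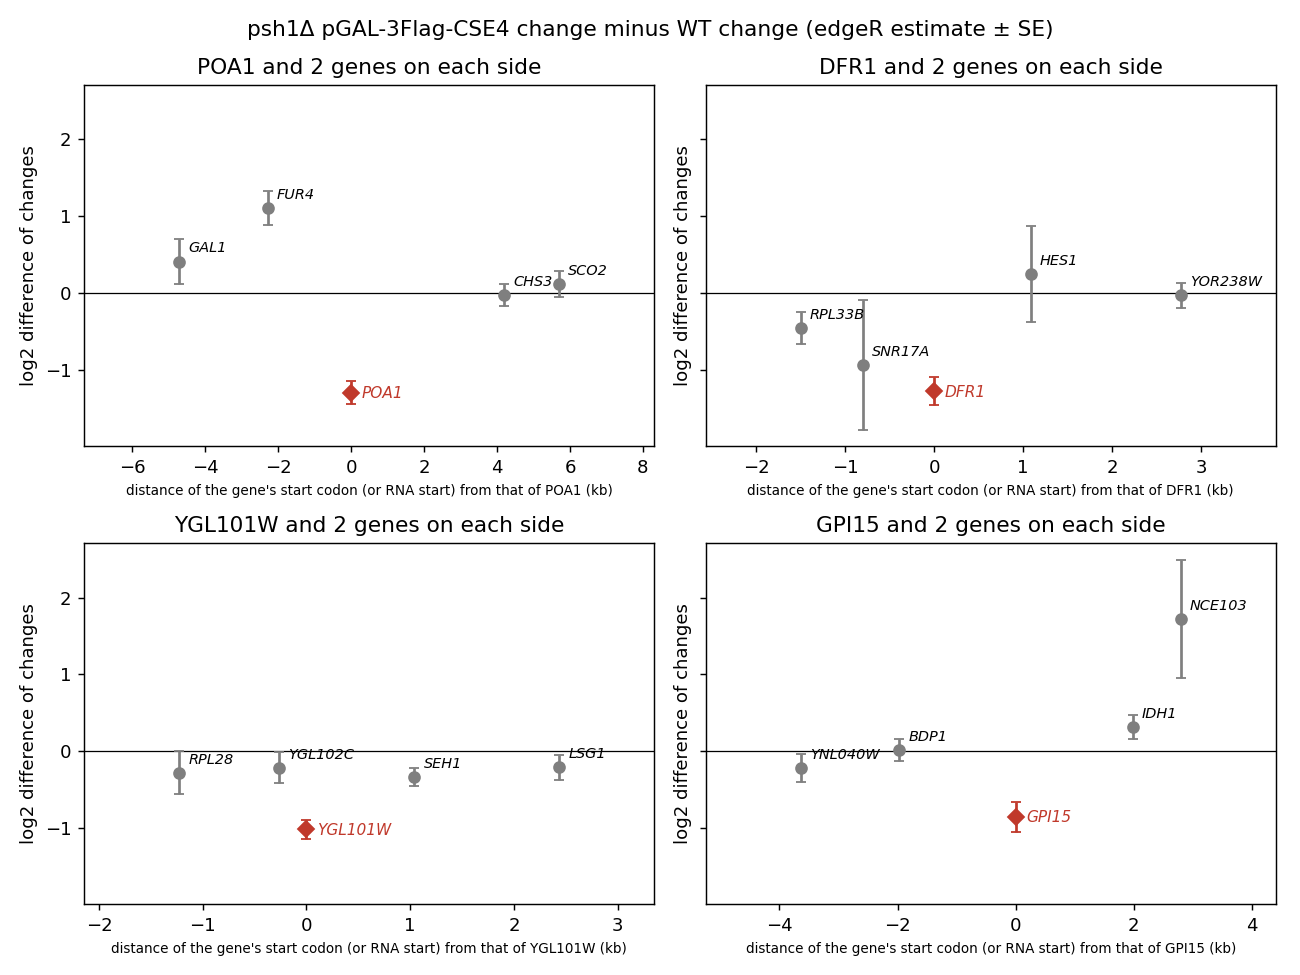
Difference between the change of *psh1Δ pGAL-3Flag-CSE4* and that of WT on the log2 scale (edgeR estimate ± SE) for each of the 4 genes, in red, and the 2 genes on each side, in grey, against the distance between start codons in kb. The 4 genes lie between -1.30 and -0.86, and the 16 neighbours between -0.94, for *SNR17A*, and 1.72, for *NCE103*.

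Other genes of the pathways of the 4 genes were spread around 0 in folate metabolism and mostly negative in the GPI anchor and tRNA splicing lists. Lists of 27 other genes of the GPI anchor, 19 of folate metabolism, 7 of tRNA splicing and 6 of deoxyribonucleotide metabolism hold 58 genes, with *CDC21*, thymidylate synthase, on 2 of them. In the contrast of *psh1Δ pGAL-3Flag-CSE4* change against WT change, 0 of the 58 were called higher and 0 lower by edgeR, against 0.338% of all genes, a share at which a count of 0 says little about the lists. An unadjusted p under 0.05 was found for 14 of the 58, against 16.1% of all genes, and DESeq2 called 2, against 2.59% of all genes.

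In the GPI anchor list the median was -0.20, against -0.01 for all genes, and 24 of 27 values were negative. *GPI11*, needed to add ethanolamine phosphate to the anchor, was the lowest at -0.86 (SE 0.24, adjusted p = 0.107), near the -0.86 of *GPI15*. It was at 27.2 ± 4.19 CPM in *psh1Δ pGAL-3Flag-CSE4* at t2 and 45.7 ± 8.22 CPM in WT at t2 (SD, n = 3 each), and DESeq2 called it. *GWT1*, which acylates the inositol of the anchor, followed at -0.52 (SE 0.21, adjusted p = 0.231). *GPI19*, which encodes another subunit of the Gpi15 enzyme, was at 0.13 (SE 0.27), and *GPI13*, an ethanolamine phosphate transferase, at 0.18 (SE 0.12). The remaining measured subunits of the Gpi15 enzyme, *GPI2*, *ERI1* and *GPI1*, chosen after their values were seen, were at -0.19, -0.16 and -0.04, with standard errors of 0.22, 0.26 and 0.19.

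In the folate list the median was 0.03 and 8 of 19 values were negative. The lowest were *MIS1*, mitochondrial tetrahydrofolate synthase, at -0.30 (SE 0.21), and *FAU1*, methenyltetrahydrofolate synthetase, at -0.27 (SE 0.16). The highest were the glycine decarboxylase genes *GCV2* at 0.88 (SE 0.50, adjusted p = 0.419) and *GCV1* at 0.58 (SE 0.45, adjusted p = 0.579). *CDC21*, whose enzyme makes the dihydrofolate that Dfr1 reduces, was at 0.03 (SE 0.21).

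In the tRNA splicing list the median was -0.34 and 6 of 7 values were negative. *SEN15*, a subunit of the tRNA splicing endonuclease, was at -1.28 (SE 0.25, adjusted p = 0.0529), close to *POA1* at -1.30, and DESeq2 called it. It was at 5.61 ± 0.32 CPM in *psh1Δ pGAL-3Flag-CSE4* at t2 and 14.1 ± 0.62 CPM in WT at t2 (SD, n = 3 each), and at 9.74 ± 2.31 CPM in the same strains before galactose and 10.2 ± 0.995 CPM in WT at t0. *SEN54*, another subunit, was at -0.50 (SE 0.11, adjusted p = 0.0627), and the catalytic subunits *SEN2* and *SEN34* were at -0.18 (SE 0.13) and 0.13 (SE 0.49). The endonuclease genes thus spanned nearly the whole range between the level of *POA1* and no difference.

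In the deoxyribonucleotide list the median was -0.10 and 4 of 6 values were negative. The lowest were *DUT1*, dUTP pyrophosphatase, at -0.53 (SE 0.20, adjusted p = 0.216) and *DCD1*, dCMP deaminase, at -0.40 (SE 0.23, adjusted p = 0.43), and the highest were *YNK1*, nucleoside diphosphate kinase, at 0.51 (SE 0.19, adjusted p = 0.208) and *CDC21* at 0.03.

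**Figure D4:**
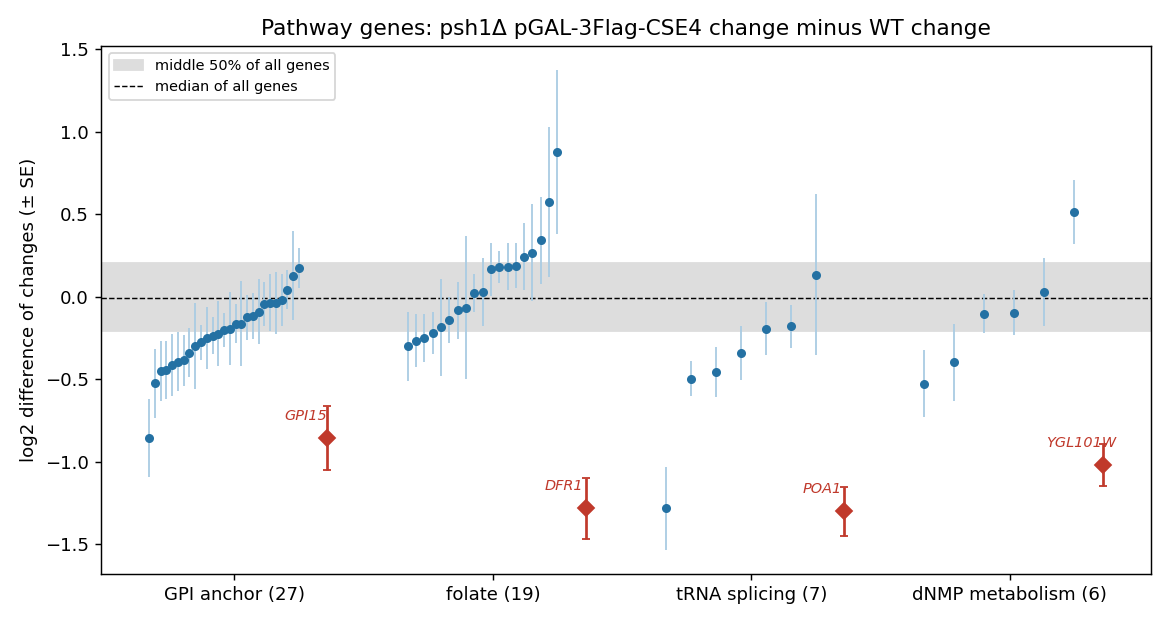
Difference between the change of *psh1Δ pGAL-3Flag-CSE4* and that of WT on the log2 scale (edgeR estimate ± SE) for the genes of 4 pathway lists, in blue, with the number of genes in brackets, and for the chosen gene of each list, in red. The dashed line is the median of all genes at -0.01 and the grey band their middle 50%. *GPI11* at -0.86 and *SEN15* at -1.28 are the blue points nearest to the chosen gene of their lists.

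The levels of the 4 genes went together across libraries, largely through the 3 low ones. After the mean of the libraries of the same batch and time was taken from each log2 level, the pairwise Pearson correlation over 34 libraries lay between 0.74, for *DFR1* and *GPI15*, and 0.93, for *POA1* and *YGL101W*. Without the 3 *psh1Δ pGAL-3Flag-CSE4* t2 libraries it lay between 0.19, for *POA1* and *GPI15*, and 0.62, for *DFR1* and *YGL101W*, over 31 libraries. The points share libraries, strains and batches and are not independent, so these are descriptions.

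Among 5850 genes with a mean of at least 10 counts, the genes most like *POA1* over the 34 libraries were *HCS1*, a DNA helicase gene, with a correlation of 0.94, *YGL101W*, with 0.93, and *ISW2*, a chromatin remodeler gene, with 0.91. Without the 3 libraries these were 0.59, 0.50 and 0.21. For *YGL101W* they were *POA1*, *YDR292C*, which encodes a subunit of the signal recognition particle receptor, with 0.92, and *HRI1*, with 0.91. For *GPI15* they were *PRP6*, a splicing factor gene, with 0.90, *YGL101W*, with 0.89, and *YDR292C*, with 0.88. For *DFR1* they were *ABP140*, a tRNA methyltransferase gene, with 0.90, *MED4*, a Mediator subunit gene, with 0.88, and *ISW1*, another chromatin remodeler gene, with 0.88, and here the values without the 3 libraries stayed high, at 0.75, 0.83 and 0.75. With the same libraries left out, the values were 0.50, 0.55 and 0.63 for *YGL101W* and 0.67, 0.59 and 0.60 for *GPI15*. *DFR1* was thus the member whose nearest genes were least dependent on the libraries it was chosen for.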

How the data were processed

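Total RNA of 34 samples, from 17 strains each taken at t0 and t2, was sequenced by the authors with a TruSeq RNA v2 kit, which does not keep strand. They filtered low-quality reads, aligned to SacCer3 with TopHat 2.1.0, counted reads on genes with HTSeq 0.6.1, whose counting mode was not given in the sources used here, and removed genes with low counts. Raw gene-level counts in the deposited tables were used unchanged. Columns with the authors' own CPM, log2 fold changes and p-values for their comparisons were not used. Column names of the tables were matched to libraries by the legend of the study's supplementary workbook and the sample titles.

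Counts were analysed in R 4.3.3 with edgeR 4.0.16 (TMM, glmQLFit and glmQLFTest) on the libraries of the groups compared, without a batch term, over 6209 genes with Benjamini-Hochberg adjustment, and CPM values are TMM-scaled over all 34 libraries. SE is the log2 estimate divided by the square root of its F. Values within batches used a pseudocount of 0.5 CPM. Calls needed an adjusted p under 0.05 and a change of at least 1.5-fold. With totals between 5258139 and 6836827 counts per library, the precision of the 4 genes is limited by 38 to 512 counts a library. The method was tested on simulated data.

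The genes and all lists were chosen with earlier results of these data known. Named were the 4 genes, their 2 nearest genes on each side, *YBR242W*, the 2 lowest and 2 highest genes of each pathway list, since fewer than 5 were called, the 3 genes most correlated with each, and *PSH1*, *CSE4*, *HTZ1* and *HHT1*. *GPI3*, on the GPI list, was not analysed here. The shared number, a batch in the labels, was taken as pairing only for values within batches and in the batch block. The main tests did not use it. Deviations from group means correlated with a median of 0.40 over 80 pairs of the same batch and time, and 0.18 over the 17 pairs of t0 and t2 of the same strain. Alternatives were DESeq2 1.42.0, its size factors in edgeR, a filter of 10 counts in at least 3 libraries, a batch block, 1 fit over all 34 libraries, leaving out each batch in turn and, chosen after seeing the data, library totals without TMM. RefSeq R64 coordinates matched those of the tables for 99.8% of 5714 genes. 1 promoter motif is not reported here.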

Additional observations from a re-analysis of the deposited data

How the results depend on the processing

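The direction of the 4 genes in the contrast they were chosen for was the same under every alternative, and their median log2 difference, -1.15, lay between -1.15 and -1.04 with a batch left out. It was -1.33 with library totals in place of TMM, which moved the median of all genes by -0.18. With each batch left out in turn, 0 to 1 members were called for *htz1Δ* t2 against t0 and 0 to 1 for *htz1Δ* against WT at t2. With all 34 libraries in 1 fit, with library totals or with DESeq2, 1 neighbour (*FUR4*) was called, and 2, 4 and 2 pathway genes. The batch block adds a term for each batch. It pairs libraries where t2 is compared with t0 in a genotype. In a contrast of changes it does not pair t0 with t2 of the same strain. With it *DFR1* stayed called in *htz1Δ* (0.81, adjusted p = 0.00412), and no call of a member, neighbour or pathway gene changed. It called 274 genes for *psh1Δ* t2 against t0, where 50 were called without it, and 35 for the contrast of choice, where 21 were.

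Counts of all genes called moved by over 1.5 times elsewhere. For the contrast of choice they were 188 with all 34 libraries, 161 with DESeq2 and 278 with library totals, of which 13.3% were higher, against 47.6% higher without that change, and 1 to 3 with a batch left out. For *psh1Δ* t2 against t0 they were 306 with all 34 libraries, 271 with DESeq2 and 16 to 501 with a batch left out. They were 146 to 948 for *htz1Δ* and 264 to 955 for *pGAL-H3* t2 against t0 with a batch left out, where 673 and 671 were called, 152 for *pGAL-3Flag-CSE4* t2 against t0 with all 34 libraries, where 302 were, and 215 to 410 for *htz1Δ* against WT at t2 with a batch left out, where 406 were. The *pGAL-H3* change against WT called 2 genes with all 34 libraries and 9 with DESeq2, where 1 was called, and *psh1Δ* against WT at t2 called 1 to 5 with a batch left out. The cause was not tested.

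Values near 0 changed sign. With library totals *GPI15* in *htz1Δ* t2 against t0 was -0.0088, *YGL101W* in *htz1Δ* against WT -0.042, and in the contrast of choice *BDP1* was -0.16, *SCO2* -0.061, *GPI19* -0.052, *GPI13* -0.0030, *SEN34* -0.060 and *CDC21* -0.15. With a batch left out, *GPI15* in *htz1Δ* t2 against t0 lay between -0.011 and 0.30, *DFR1* and *YGL101W* in *psh1Δ* against WT between -0.16 and 0.22 and between -0.032 and 0.15, *YGL101W* in the *pGAL-H3* change between -0.19 and 0.039, *BDP1* between -0.027 and 0.043, *CHS3* between -0.10 and 0.068, *YOR238W* between -0.085 and 0.024 and *CDC21* between -0.22 and 0.19.

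Without batch 2 or 3, *pGAL-3Flag-CSE4* t2 against t0 has 1 strain at each time and gives values without a test, and it has no batch 1. *GPI15* and *POA1* rest on 38 to 58 counts a library in the group of choice. Whether the batches differ only technically was not tested, since each batch also has its own strains.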
